A study of Mus musculus with 11 samples.

Results

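The genes described are the nuclear-encoded genes of oxidative phosphorylation. They were chosen by name, as every symbol in the deposited table that begins with Nduf, Uqcr, Atp5 or Cox4 to Cox8, together with Sdha, Sdhb, Sdhc and Sdhd. This gave 89 genes of the 13734 in the table, from 121 of its 22320 transcripts. By their known roles, 74 encode subunits: 36 of complex I, 4 of complex II, 8 of complex III, 11 of complex IV and 15 of complex V. The other 15 are 8 complex I assembly factors (Ndufaf genes), 4 alternative isoforms of complex IV subunits (Cox4i2, Cox6b2, Cox7a1 and Ndufa4l2) and 3 genes whose products are not counted here as subunits (Cox7a2l, Atp5s and Atp5sl). All 89 passed the filter on low counts, and the rule uses names alone and no level.

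Complexes I to IV pass electrons from NADH and succinate to oxygen in the inner mitochondrial membrane and, except for complex II, pump protons as they do so. Complex V, the ATP synthase, lets the protons return and makes ATP. Most subunits are made from nuclear genes and imported, and a few come from mitochondrial DNA, of which 0 transcripts were in the table. In the kidney the reabsorbing tubule, above all the proximal tubule and the thick ascending limb, is rich in mitochondria, and glomerular cells hold fewer.

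The 11 libraries were made from RNA of mouse glomeruli isolated from the kidney. The DbDbPue group (n = 3) held db/db mice, homozygous for the diabetes allele of the leptin receptor gene, given puerarin, a plant isoflavone glycoside, by gavage at 20 mg per kg body weight per day in 5% DMSO. The DbDbDMSO group (n = 4) held db/db mice given 5% DMSO alone, and the DbmDMSO group (n = 4) held heterozygous db/m littermates given the same vehicle. All mice were labelled male, were bought at 8 weeks of age, and were treated for 6 weeks from 10 weeks of age. The treatment notes place them on the BKS background but C57BL/6J is given as their strain. No untreated or db/m puerarin group was included. The labels do not say whether a library held 1 animal or a pool, so the p-values measure only how far these samples spread, part of which could be technical. In both arms the leptin receptor allele acts in the whole body, so obesity and diabetes come with it.

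The titles of libraries take 2 forms. One is an S number (S144 in DbDbPue, S152 and S153 in DbDbDMSO, S184 and S185 in DbmDMSO), and the other, in 6 libraries, is the group's tag and a number. Sequencing took place at 2 sites, and the labels do not say which library came from which. Total counts ran from 35369703 to 44244460. The podocyte gene Nphs1 was high in all 11 libraries, at 1178 to 1567 CPM (read counts scaled to a common library size with TMM factors), as glomeruli require. Tubule genes were present too: Umod, a gene of the thick ascending limb, ran from 472 to 3562 CPM, and Lrp2, the endocytic receptor megalin of the proximal tubule, from 39.0 to 233 CPM. The libraries DbDbPue 2 and DbDbPue 3 had 528.5 and 819 CPM of Xist, the female-specific RNA, against 0.519 to 6.47 CPM in the other 9, and 3.06 and 0.909 CPM of the Y-linked Ddx3y, against 50.3 to 85.2 CPM. They therefore went against the male label, and results that rest on them are also given without them.

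Levels are compared between genes only as CPM per kb of the transcript, as the mean over the 11 libraries of the transcript with the most counts. For these values alone, counts were scaled to the library's total over such transcripts, leaving out all others. They are therefore on a larger scale than the CPM given elsewhere, and the 2 cannot be set side by side. Subunits spanned 32.4 to 1647 CPM per kb, with a median of 191. Complex IV subunits had the highest median, 543 CPM per kb, followed by complex V (351), complex III (208), complex I (158) and complex II (152.3). The assembly factors, needed to build complex I but absent from the finished enzyme, had a median of 13.3 CPM per kb.

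Within complex I, the accessory subunit genes Ndufb4 (471 ± 98.6 CPM per kb, SD over 11 libraries) and Ndufb9 (349 ± 95.7) were the highest and Ndufa11 (32.4) the lowest. The 4 genes of complex II, which is also succinate dehydrogenase of the citric acid cycle, lay between 124 and 192 CPM per kb: 192 ± 37.6 CPM per kb for the flavoprotein Sdha, 176 ± 39.4 for the iron-sulfur subunit Sdhb, and 129 ± 26.6 and 124 ± 27.4 for the membrane anchors Sdhc and Sdhd. Within each of these pairs the genes differed by less than the SD between libraries, while Sdhb stood above Sdhc by more than either SD. The SD includes the swing that the subunits share across libraries, described below. It therefore does not show whether the genes differ from each other. In complex III, the small subunit genes Uqcr11 (663 ± 152.1 CPM per kb) and Uqcr10 (508 ± 125) were highest and the core protein gene Uqcrc2 (104) was lowest. In complex IV, Cox6a1 (1647 ± 331 CPM per kb) and Cox8a (1067 ± 253), both genes of the isoforms found in most tissues, were highest. In complex V, the catalytic beta subunit gene Atp5b (949 ± 204 CPM per kb) and the central stalk gene Atp5e (699 ± 136) were highest and Atp5k (96.7) was lowest.

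**Figure D1:**
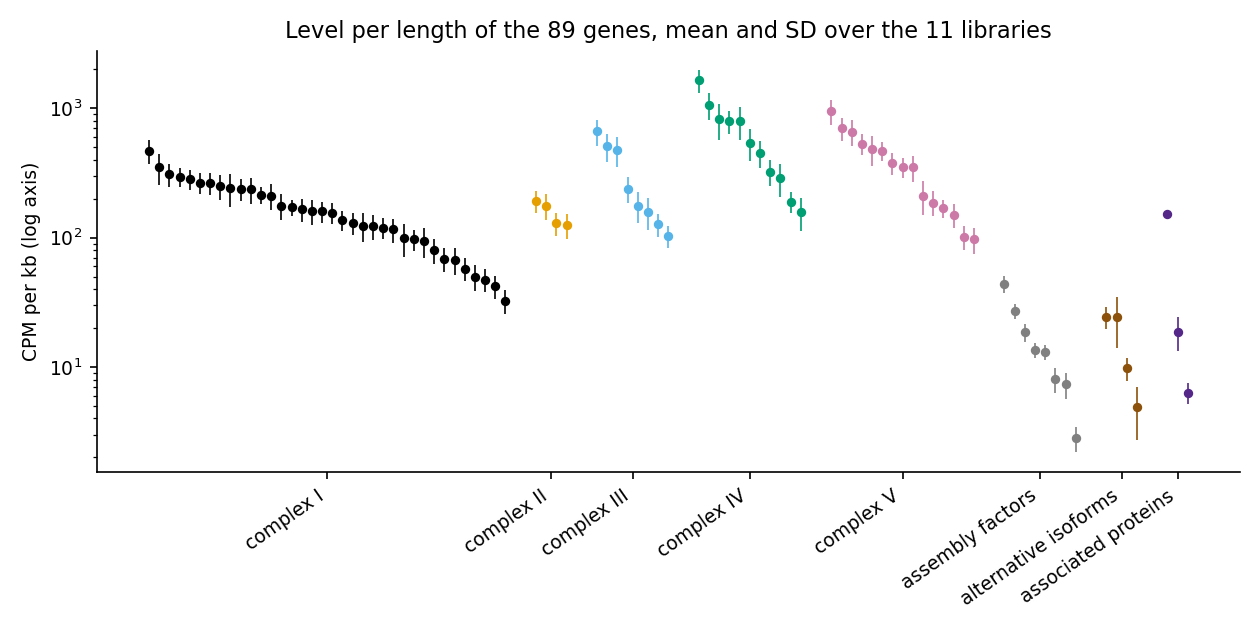
Each point is the mean CPM per kb of 1 of the 89 genes over the 11 libraries, on a log axis, and its bar is the SD; genes are sorted within their complex or class. Subunits lie between 32.4 and 1647 CPM per kb, and the assembly factors and alternative isoforms lie at or below 44.1 CPM per kb.

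Where a subunit has isoforms made from different genes, 1 gene dominated for Cox4i, Cox6b, Cox7a and Ndufa4. Cox4i1, the general isoform of the regulatory subunit 4, had 798 CPM per kb, 163 times the 4.89 of Cox4i2, an isoform known from lung and vascular mural cells and for its induction by low oxygen. Cox6b1 (453 CPM per kb) stood 46.5 times above Cox6b2 (9.75), the testis isoform, and Ndufa4 (323), a subunit of complex IV despite its name, 13.2 times above Ndufa4l2 (24.4), a paralog known as a target of hypoxia-inducible factor. Cox7a2 (190 CPM per kb), the general isoform, stood 7.82 times above Cox7a1 (24.3), the muscle isoform. Cox7a2l, whose product joins complexes III and IV into supercomplexes, had 154 CPM per kb. Atp5g1, Atp5g2 and Atp5g3 encode the same mature ring protein of complex V, and all were abundant, at 211, 351 and 484 CPM per kb. No source used here states how reads that match several copies were counted, so paralog levels are uncertain to that extent. In GENCODE M21 the exons of 22 members overlap those of another gene, among them Cox4i1 (Emc8, opposite strand), Ndufa4l2 (Shmt2, opposite strand) and Ndufb9 (Gm49356, same strand), and shared reads there could not be separated.

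The promoters of members that moved together across libraries, as described below, are shown for 1 gene of each complex, with Cox7a2l as a gene that did not move with them. RefSeq windows (build GRCm38.p6, 250 bases before to 50 after the start) were found for 75 of the 89 genes, and 32851 windows of the same 300 bases served as the background. Letters searched on both strands were GCGCATGCG for NRF1, CCGGAAG for GABPA (also called NRF2), TCAAGGTCA for ESRRA, AAGATGGC for YY1, TGACGTCA for CREB and GGGCGG for SP1. NRF1, GABPA, ESRRA and YY1 are known as activators of respiratory chain genes. Matches are in capitals, and those on the other strand read as the reverse complement. The windows are Ndufa3 (a complex I accessory subunit, chr7:3617123-3617422, plus strand), Sdhd (chr9:50603800-50604099, minus strand), Uqcr11 (chr10:80406772-80407071, minus strand), Cox6a1 (chr5:115348909-115349208, minus strand), Atp5e (chr2:174464052-174464351, minus strand) and Cox7a2l (chr17:83514284-83514583, minus strand).
Ndufa3: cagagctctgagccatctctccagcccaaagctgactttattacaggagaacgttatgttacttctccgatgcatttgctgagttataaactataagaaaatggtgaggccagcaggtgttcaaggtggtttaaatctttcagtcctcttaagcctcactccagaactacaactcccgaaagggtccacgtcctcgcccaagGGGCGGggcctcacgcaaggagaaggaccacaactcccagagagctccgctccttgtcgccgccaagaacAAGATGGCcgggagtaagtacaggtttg
Sdhd: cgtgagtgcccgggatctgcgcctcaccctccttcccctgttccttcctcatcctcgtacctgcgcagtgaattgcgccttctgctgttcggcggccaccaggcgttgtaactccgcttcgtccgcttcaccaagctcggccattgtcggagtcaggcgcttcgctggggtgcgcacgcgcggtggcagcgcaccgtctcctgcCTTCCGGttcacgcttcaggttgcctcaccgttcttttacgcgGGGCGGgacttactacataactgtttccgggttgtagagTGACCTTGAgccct
Uqcr11: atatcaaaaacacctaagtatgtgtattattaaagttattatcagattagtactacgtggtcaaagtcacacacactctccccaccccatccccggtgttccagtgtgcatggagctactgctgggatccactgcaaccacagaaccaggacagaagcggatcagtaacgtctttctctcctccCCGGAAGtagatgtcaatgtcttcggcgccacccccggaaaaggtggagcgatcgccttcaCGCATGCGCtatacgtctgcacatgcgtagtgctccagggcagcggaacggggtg
Cox6a1: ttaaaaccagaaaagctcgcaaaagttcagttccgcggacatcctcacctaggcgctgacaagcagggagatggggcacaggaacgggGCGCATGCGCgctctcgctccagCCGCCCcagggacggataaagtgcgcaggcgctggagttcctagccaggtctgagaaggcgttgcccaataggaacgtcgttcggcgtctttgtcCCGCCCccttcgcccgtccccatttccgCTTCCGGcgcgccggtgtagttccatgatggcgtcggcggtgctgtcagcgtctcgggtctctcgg
Atp5e: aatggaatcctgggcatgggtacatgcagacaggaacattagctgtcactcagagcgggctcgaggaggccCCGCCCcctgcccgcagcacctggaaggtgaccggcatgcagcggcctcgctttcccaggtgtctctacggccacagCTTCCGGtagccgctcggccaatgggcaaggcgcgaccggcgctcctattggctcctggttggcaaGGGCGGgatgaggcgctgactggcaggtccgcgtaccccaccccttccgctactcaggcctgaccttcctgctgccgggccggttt
Cox7a2l: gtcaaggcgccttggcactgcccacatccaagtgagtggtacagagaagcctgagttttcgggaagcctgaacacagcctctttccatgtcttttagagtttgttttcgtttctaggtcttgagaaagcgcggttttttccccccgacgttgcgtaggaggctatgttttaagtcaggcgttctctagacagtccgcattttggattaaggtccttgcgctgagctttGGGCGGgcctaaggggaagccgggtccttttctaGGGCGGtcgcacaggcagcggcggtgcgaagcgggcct

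Cox6a1 held NRF1 letters on both strands at overlapping positions, GABPA letters 16 bases before the start, and SP1 letters at -139 and -44. In Uqcr11 the NRF1 letters began 5 bases before the start and the GABPA letters 66 bases before it. Sdhd held GABPA, SP1 and ESRRA letters, Ndufa3 held SP1 and YY1 letters, and Atp5e held GABPA and SP1 letters. The Cox7a2l window held only SP1 letters, on both sides of its start. Such windows were not confined to it: that of Atp5b, a subunit that moved with the others, also held only SP1 letters. The windows of Atp5d and Cox5b, which moved likewise, held none of the letters searched.

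Over all matched members, NRF1 letters were in 10 of 75 windows (13.3%, against 1.75% of all windows) and GABPA letters in 17 (22.7%, against 8.86%). YY1 letters were in 11 (14.7%, against 2.75%), CREB letters in 4 (5.33%, against 1.79%) and ESRRA letters in 2 (2.67%, against 0.42%; Sdhd and Atp5g3). SP1 letters, common in GC-rich promoters, were in 34 (45.3%, against 35.7%). Letters of any of the 6 were in 56 of 75 windows (74.7%, against 41.9%). The members' windows had a median GC content of 58.7% and 20 CpG, against 52.7% and 7 CpG over all windows. A match is a description of the letters and says nothing of binding in these mice.

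The level of a gene group is given as the mean over its genes of log2 CPM, each gene centred on its mean over the 11 libraries. Across the libraries, the subunits of all 5 complexes moved up and down together, and the libraries that were high or low came from different groups. The 74 subunits had levels of -0.49, 0.35 and 0.12 in DbDbPue S144, 2 and 3. In DbDbDMSO S152, S153, 1 and 3 they had -0.06, 0.17, -0.16 and 0.41, and in DbmDMSO S184, S185, 2 and 3 they had 0.24, -0.55, -0.08 and 0.04. DbDbPue S144 and DbmDMSO S185 were thus far below the other 9 libraries, and DbDbDMSO 3 and DbDbPue 2 were highest. As a share of the library's counts (highest transcript of each gene), the 89 genes took 1.21%, 2.15% and 1.92% in DbDbPue S144, 2 and 3. In the same order as above, they took 1.64%, 1.86%, 1.60% and 2.32% in DbDbDMSO and 1.996%, 1.20%, 1.72% and 1.84% in DbmDMSO. The group ranges overlapped throughout.

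**Figure D2:**
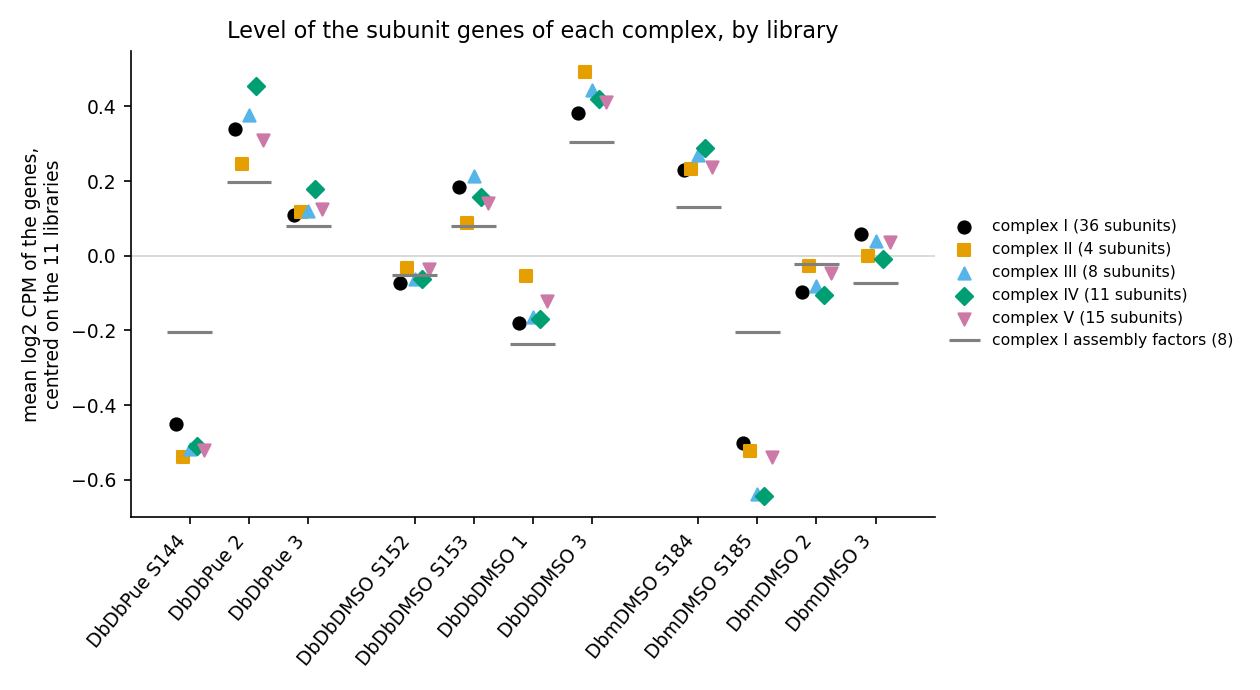
Each symbol is the level of the subunit genes of 1 complex in 1 library, as mean log2 CPM centred on the 11 libraries, with grey bars for the 8 complex I assembly factors. All 5 complexes lie at about -0.45 or lower in DbDbPue S144 and DbmDMSO S185 and at about 0.38 or higher in DbDbDMSO 3, while the assembly factors stay within -0.24 and 0.30.

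In each of the 5 complexes DbDbPue S144 and DbmDMSO S185 were the 2 lowest libraries, and DbDbDMSO 3 was the highest in all but complex IV. In DbDbPue S144 the levels were -0.45 for complex I, -0.54 for II, -0.52 for III, -0.51 for IV and -0.52 for V, and in DbmDMSO S185 they were -0.50, -0.52, -0.64, -0.64 and -0.54. In DbDbDMSO 3 the levels were 0.38, 0.49, 0.44, 0.42 and 0.41 for complexes I to V. DbDbPue 2 had the highest complex IV level of any library, 0.45, but a complex II level of only 0.25. The assembly factors varied less, with -0.20 in both DbDbPue S144 and DbmDMSO S185 and 0.30 in DbDbDMSO 3.

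Single genes repeated this. Of the 74 subunits, 73 had their lowest CPM in DbDbPue S144 (26 genes) or DbmDMSO S185 (47 genes), and in 65 these were the 2 lowest libraries. The exception was Ndufa2, a complex I accessory subunit, lowest in DbDbDMSO 1. The highest library was DbDbDMSO 3 for 42 subunits and DbDbPue 2 for 26. Over the 11 libraries the range of a member's log2 CPM had a median of 1.0002, against 0.71 over all genes tested. Among subunits it ran from 0.59 (Ndufa2) to 1.56 (Atp5g1), a 2.95-fold difference between the highest and lowest library for Atp5g1.

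Cox6a1, the highest gene per length, had 397, 594 and 502 CPM in DbDbPue S144, 2 and 3. It had 495, 590, 511 and 710 CPM in DbDbDMSO S152, S153, 1 and 3, and 658, 366, 530 and 666 CPM in DbmDMSO S184, S185, 2 and 3. The groups overlapped, and the lowest values were those of S144 and S185. Sdhd had 65.0, 121 and 109.8 CPM in DbDbPue, 93.8, 98.2, 97.5 and 141 CPM in DbDbDMSO, and 112, 67.1, 97.1 and 92.6 CPM in DbmDMSO, in the same library order. Atp5b had 728, 1204 and 1165 CPM in DbDbPue, 1011, 1102, 1069 and 1612 CPM in DbDbDMSO, and 1265, 769, 1112 and 1176 CPM in DbmDMSO. Both were highest in DbDbDMSO 3, and their groups overlapped.

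Cox7a2l stood outside this pattern: its CPM varied only 1.25-fold over the 11 libraries, the narrowest of the 89 genes. It had 202, 175 and 179 CPM in DbDbPue S144, 2 and 3, 207, 188, 177 and 192 CPM in DbDbDMSO, and 218, 206, 194 and 182 CPM in DbmDMSO. The alternative isoforms also differed from the rest. Cox4i2 was lowest in DbDbDMSO S152, Cox6b2 in DbDbDMSO 1 and Ndufa4l2 in DbDbDMSO 3, the library where most subunits were highest. Cox7a1 followed the subunits and had the widest range, 4.802-fold, at 1.98 to 9.49 CPM.

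Marker genes of other nephron segments moved with these levels, and their part in the result is given as far as the values show it. The 9 loop and distal tubule markers had levels of -1.76, 0.60 and 0.55 in DbDbPue S144, 2 and 3. In DbDbDMSO S152, S153, 1 and 3 they had -0.18, -0.13, 0.19 and 1.14, and in DbmDMSO S184, S185, 2 and 3 they had -0.04, -1.42, 0.53 and 0.52. Both libraries with low subunit levels were thus also the lowest for this list, and DbDbDMSO 3 was highest. Collecting duct markers (8 genes) were lowest in the same 2 libraries, at -1.735 and -1.26. Proximal tubule markers (16 genes) were highest in DbmDMSO S184 (1.29) and DbDbDMSO 3 (1.10), and lowest in DbDbDMSO 1 (-1.31) and DbmDMSO 2 (-0.92), with -0.42 in DbDbPue S144 and -0.18 in DbmDMSO S185. The 10 podocyte markers ran the other way at the ends, with 0.21 in both DbDbPue S144 and DbmDMSO S185 and -0.34 in DbDbDMSO 3. In bulk RNA, fewer cells of a type and less RNA per cell cannot be told apart.

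**Figure D3:**
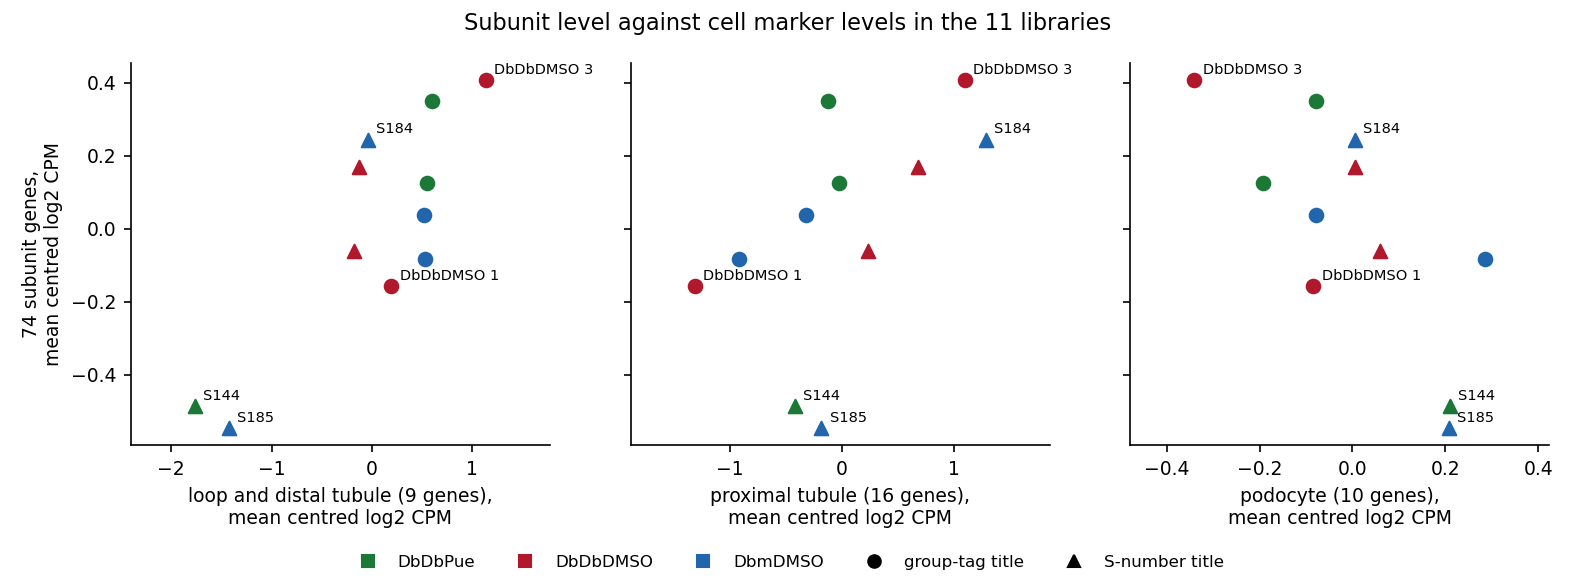
Each point is 1 of 11 libraries, with the mean centred log2 CPM of the 74 subunit genes on the vertical axis and that of a marker list on the horizontal axis. DbDbPue S144 and DbmDMSO S185 lie at the low end of the loop and distal tubule axis (-1.76 and -1.42) and near the high end of the podocyte axis (0.21 each).

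The comparison of DbDbPue with DbDbDMSO asks what puerarin changed in db/db glomeruli. None of the 89 members passed an adjusted p of 0.05 (edgeR quasi-likelihood test, Benjamini-Hochberg over 13734 genes), nor did any other gene (0%), and 0 members had an unadjusted p under 0.05, against 578 genes (4.21%). DESeq2 also called 0 members, among 15 genes. The fitted log2 fold changes were below 0 for 71 of the 89 members, with a median of -0.12, against -0.02 over all genes tested. By complex the medians were -0.12 for I, -0.25 for II, -0.19 for III, -0.05 for IV and -0.16 for V. The 3 smallest p-values on the lower side belonged to Atp5sl (log2 fold change -0.36 ± 0.20, SE), Sdha (-0.31 ± 0.18) and the core complex I gene Ndufs7 (-0.33 ± 0.19). On the higher side they belonged to Cox4i2 (0.36 ± 0.24), Cox6b2 (0.19 ± 0.18) and the assembly factor gene Ndufaf5 (0.14 ± 0.18). The smallest adjusted p of any member was 0.967 by the same edgeR test.

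The median moved with single libraries. Without DbDbPue S144 it was 0.10, with 63 of 89 members above 0, and without both DbDbPue S144 and DbmDMSO S185 it was 0.17, with 72 above 0. In both of these fits DbDbPue held only the high-Xist libraries. The median was -0.01 without DbDbDMSO 3, with 40 members above 0, and -0.05 without DbDbDMSO S153. It was -0.27 without DbDbDMSO 1 and -0.26 without DbDbPue 2. With both high-Xist libraries left out, DbDbPue S144 stood alone against DbDbDMSO, and the median was -0.51. Within the S-number libraries, where DbDbPue had S144 only, the median difference in log2 CPM was -0.50 and 0 of 74 subunits were above 0. Within the group-tag libraries, where both DbDbPue libraries were the high-Xist ones, it was 0.13, and 55 of 74 subunits were above 0. In DbDbPue, title form and Xist level therefore cannot be told apart, and the same holds for the interaction term below. Complex IV showed the widest gap, -0.59 within S-number and 0.23 within group-tag libraries. In the test of this difference between title forms (edgeR interaction term), 87 of 89 members had a positive term (a higher effect in group-tag libraries), with a median of 0.66, but 0 were called and the smallest adjusted p was 0.962. With the loop and distal tubule level as a covariate the median was 0.22 and 0 members were called. In that edgeR fit 32 of 89 members had an unadjusted p under 0.05, all on the higher side, against 1115 of 13734 genes. With the proximal tubule level the median was -0.03, with 5 such members, all on the lower side, against 1044 genes.

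For DbDbPue against DbmDMSO, which differ in genotype and treatment, 0 members were called by edgeR, against 25 of 13734 genes (0.182%), and 1 member (Cox4i2) had an unadjusted p under 0.05, against 1410 genes (10.3%). The median log2 fold change of the members was 0.03, with 51 of 89 above 0, against -0.01 over all genes. The medians were 0.04, -0.04, -0.01, 0.11 and -0.04 for complexes I to V. Cox4i2 (-0.67 ± 0.24, SE; adjusted p 0.352), Ndufs7 (-0.37 ± 0.19) and Ndufv1, the gene of the NADH-binding subunit (-0.28 ± 0.18), had the smallest p-values on the lower side. On the higher side were Atp5l, a membrane subunit of complex V (0.33 ± 0.23; adjusted p 0.715), Ndufb4 (0.28 ± 0.22) and Ndufv2, a core complex I gene (0.24 ± 0.20).

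Atp5l had 162, 294 and 259.8 CPM in DbDbPue S144, 2 and 3, and 241, 138, 181 and 174 CPM in DbmDMSO S184, S185, 2 and 3. Both group-tag DbDbPue libraries lay above all 4 DbmDMSO libraries, and S144 lay within their range. Its exons overlap an antisense gene (Gm30934), and no source used here states whether counting used strand. With the loop and distal tubule level as a covariate, Atp5l and Cox7b, a small complex IV subunit gene, were called higher in DbDbPue, among 1.34% of all genes called. Cox7b lies on the X chromosome. In the library order above it had 113, 268 and 213.1 CPM in DbDbPue and 213.4, 94.0, 159.1 and 159.5 CPM in DbmDMSO. Only DbDbPue 2 lay above all 4 DbmDMSO libraries. Neither call was repeated with this covariate and without the high-Xist libraries. With the mean tubule level as a covariate, Atp5l was the only member called, among 2.5% of all genes. With both high-Xist libraries left out, its log2 fold change was -0.17 (adjusted p 0.928). Over 24 alternatives its adjusted p ran from 0.0325 to 0.928. Without DbDbPue S144 the members' median was 0.25 and 78 of 89 were above 0, while it was -0.09 without DbDbPue 2 and 0.19 without DbmDMSO S184. Within title forms it was -0.33 among S-number and 0.25 among group-tag libraries, where both DbDbPue libraries were the high-Xist ones.

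DbDbDMSO against DbmDMSO compares genotypes on the same vehicle. By edgeR 0 members were called, against 6 of 13734 genes (0.0437%), and 1 member (Cox4i2) had an unadjusted p under 0.05, against 1418 genes (10.3%). The fitted log2 fold changes were small and mostly above 0: 81 of 89 members and 72 of 74 subunits were above 0, with a median of 0.15 over the members, against 0.02 over all genes tested. The medians were 0.15 for complex I, 0.21 for II, 0.18 for III, 0.20 for IV and 0.17 for V, and the median SE of a member was 0.19. Within the S-number libraries the members' median was 0.18 and within the group-tag libraries 0.14, with 79 of 89 above 0 in each.

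The members nearest to a call on the higher side were Ndufv2 (0.31 ± 0.18, SE; adjusted p 0.604), Sdhc (0.28 ± 0.18; 0.646) and Ndufa3 (0.34 ± 0.25; 0.681). On the lower side, after Cox4i2, were Cox7a2l (-0.06 ± 0.07) and the complex I accessory gene Ndufs5 (-0.15 ± 0.19). Ndufv2 had 131, 141, 122 and 160.2 CPM in DbDbDMSO S152, S153, 1 and 3 and 129, 85.2, 119.5 and 114 CPM in DbmDMSO S184, S185, 2 and 3. All DbDbDMSO values but that of library 1 were above all DbmDMSO values. The median moved with single libraries: it was 0.06 without DbmDMSO S185, 0.09 without DbDbDMSO 3, 0.09 without DbDbDMSO S153, 0.27 without DbDbDMSO 1, 0.35 without DbmDMSO S184, and 0.03 without DbDbPue S144 and DbmDMSO S185. It was -0.01 once the loop and distal tubule level entered the fit, with 39 of 89 members above 0, and 0.10 with the proximal tubule level, with 77 above 0. Tubule markers were also higher in DbDbDMSO on the fitted scale. The median was 0.32 for the loop and distal tubule list and 0.35 for the proximal tubule list. By edgeR 0 of their genes were called, against 0.0437% of all genes.

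Cox4i2 was the member that came nearest to a difference by genotype. It had 1.13, 2.24 and 3.12 CPM in DbDbPue S144, 2 and 3. In DbDbDMSO S152, S153, 1 and 3 it had 0.817, 1.06, 2.56 and 1.63 CPM, and in DbmDMSO S184, S185, 2 and 3 it had 2.36, 2.305, 3.38 and 3.71 CPM. DbDbDMSO values were below DbmDMSO values within each title form, and overall only DbDbDMSO 1 reached into the DbmDMSO range. The means were 1.52 ± 0.774 CPM in DbDbDMSO and 2.94 ± 0.712 CPM in DbmDMSO (SD, n = 4 each). The log2 fold change was -1.03 ± 0.22 (SE), with an adjusted p of 0.138 by edgeR, and the differences in log2 CPM within title forms were -1.30 (S-number) and -0.79 (group-tag). It passed in 2 of 24 alternatives, DESeq2 (adjusted p 0.00625) and without DbDbDMSO 1 (adjusted p 0.0467), and its adjusted p ran from 0.00625 to 0.583 over all of them.

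The general isoform Cox4i1 showed 504, 815 and 709 CPM in DbDbPue S144, 2 and 3, 715, 844, 647 and 990.2 CPM in DbDbDMSO, and 859.96, 513, 671 and 786 CPM in DbmDMSO. It followed the other subunits, with a log2 fold change of 0.18 ± 0.19 (SE) for DbDbDMSO over DbmDMSO and an adjusted p of 0.799 by edgeR. The 8 markers of mesangial and mural cells, in which Cox4i2 is known, had mean levels of 0.05 ± 0.13 in DbDbPue, 0.01 ± 0.33 in DbDbDMSO and -0.05 ± 0.26 in DbmDMSO (SD). Their ranges overlapped, and their part in the Cox4i2 values was not tested.

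**Figure D4:**
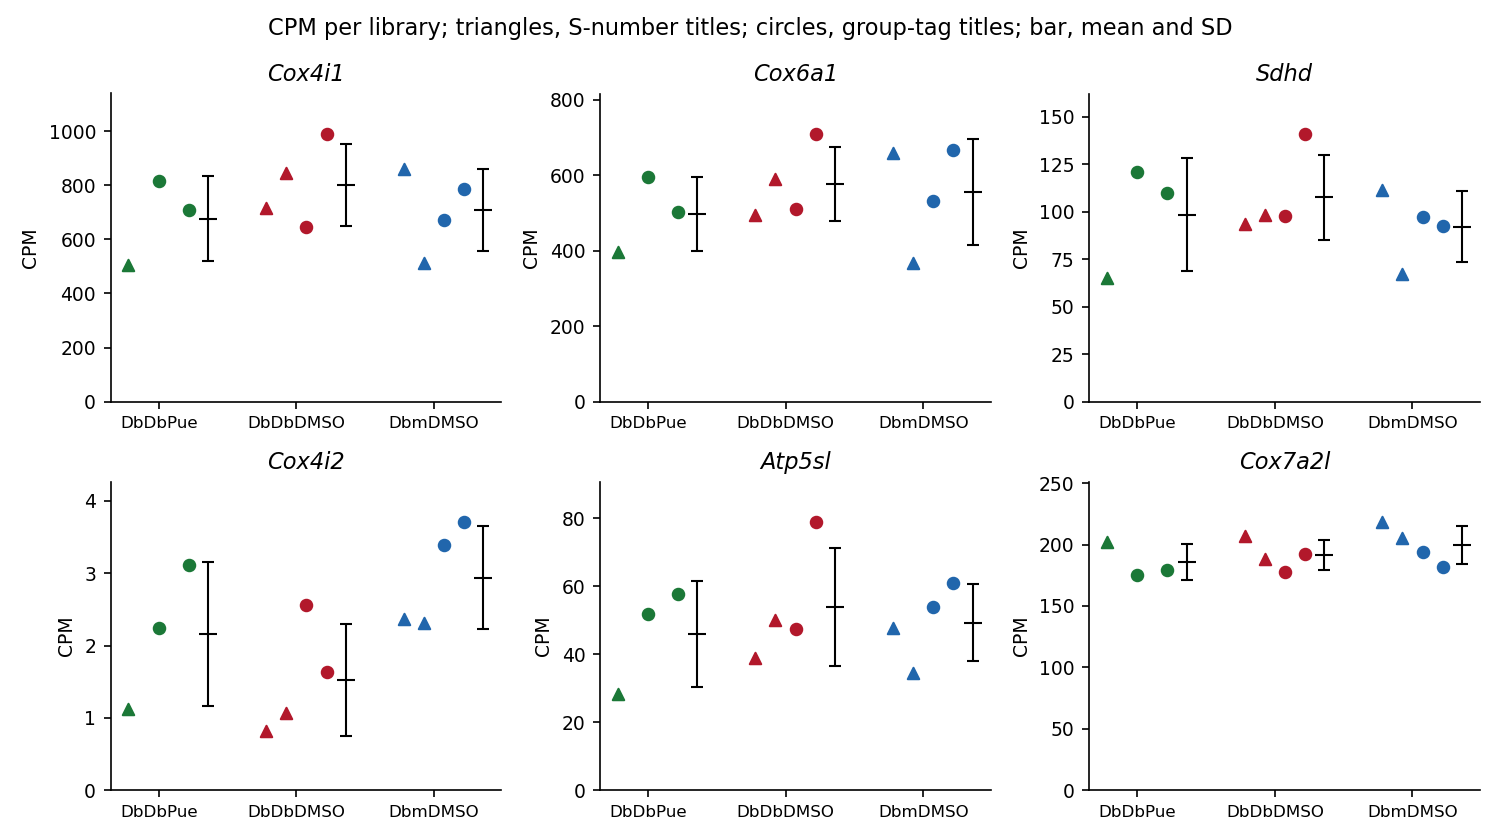
CPM of 6 genes in each library, by group, with triangles for S-number and circles for group-tag titles; the bar is the mean and SD of the group. Cox4i1, Cox6a1 and Sdhd share the low values of DbDbPue S144 and DbmDMSO S185, Cox4i2 is lowest in the DbDbDMSO S-number libraries (0.817 and 1.06 CPM), and Cox7a2l stays between 175 and 218 CPM.

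Group-tag libraries were above S-number libraries in 83 of 89 members and in all 74 subunits on the fitted scale, with a median log2 fold change of 0.24, against -0.02 over all genes. The medians were 0.24, 0.28, 0.24, 0.26 and 0.25 for complexes I to V. By edgeR 2 members passed, the only ones in the 4 contrasts of that fit, against 957 of 13734 genes (6.97%), and 8 had an unadjusted p under 0.05, against 3481 genes (25.3%). The members' share was below that background in both counts. The 2 were Cox4i2 (log2 fold change 0.96 ± 0.19, SE; adjusted p 0.0226) and Atp5sl (0.61 ± 0.16; adjusted p 0.0469). The title form stands in every group, but its meaning is not given in the labels, so preparation, site and animal cohort cannot be told apart. Both high-Xist libraries have group-tag titles, so this contrast may also hold part of any difference that goes with Xist.

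Atp5sl is named after a coupling factor of complex V and is linked to complex I assembly in human cells. It had 51.8, 57.7, 47.5, 78.9, 54.04 and 61.1 CPM in the group-tag libraries (DbDbPue 2 and 3, DbDbDMSO 1 and 3, DbmDMSO 2 and 3). In the S-number libraries S144, S152, S153, S184 and S185 it had 28.4, 38.9, 50.1, 47.7 and 34.4 CPM. Only S153 and S184 reached into the group-tag range. Cox4i2 had 2.24, 3.12, 2.56, 1.63, 3.38 and 3.71 CPM in the group-tag libraries and 1.13, 0.817, 1.06, 2.36 and 2.305 CPM in the S-number libraries, again with overlap from DbmDMSO. Over 22 alternatives the adjusted p ran from 0.000378 to 0.2 for Cox4i2, which passed in 16, and from 0.000153 to 0.956 for Atp5sl, which passed in 9. With both high-Xist libraries left out, neither passed (log2 fold change 0.87 and adjusted p 0.118 for Cox4i2, 0.51 and 0.229 for Atp5sl), and the members' median was 0.11.

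Others with small p-values in this contrast were Ndufaf5 on the higher side (0.39 ± 0.14, SE; adjusted p 0.126), and Cox6b2 (-0.38 ± 0.15; 0.1396), Cox7a2l (-0.15 ± 0.06; 0.1502) and the assembly factor gene Ndufaf6 (-0.21 ± 0.20; 0.550) on the lower side. The loop and distal tubule markers moved with the title form: 7 of 9 were called higher in group-tag libraries, with a median log2 fold change of 1.30. With that level as a covariate the members' median was -0.44, and 11 members were called lower, among 1.93% of all genes called. Once the proximal tubule level entered instead, it was 0.43, and 62 were called higher, among 27.7% of all genes called, and with the mean tubule level it was -0.08. Without DbDbPue S144 and DbmDMSO S185 it was -0.04, with 0 members called.

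**Figure D5:**
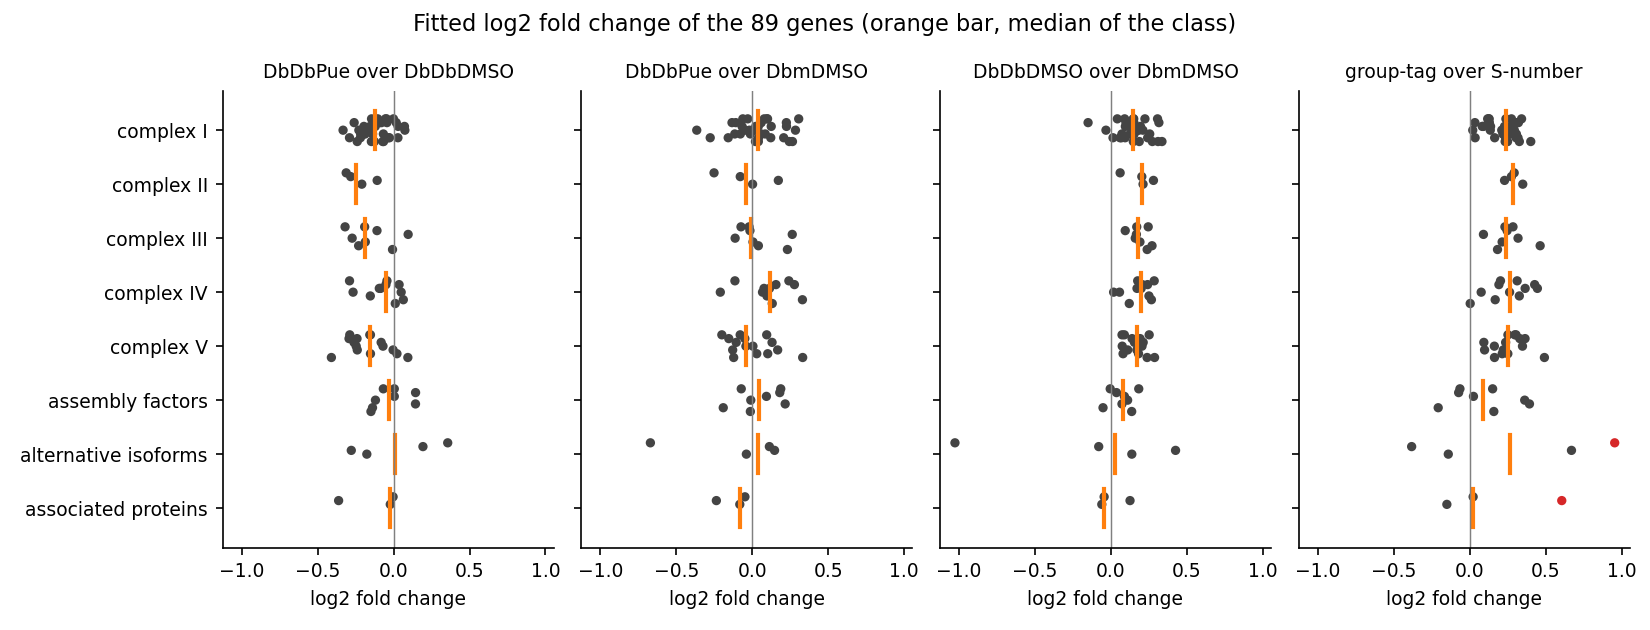
Each point is the fitted log2 fold change of 1 of the 89 genes in 4 contrasts, by complex or class, with the median of the class as an orange bar and genes with an adjusted p under 0.05 in red. Red points appear only for group-tag over S-number libraries (Cox4i2 and Atp5sl), and the point near -1.03 for DbDbDMSO over DbmDMSO is Cox4i2.

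Assembly factors and electron carriers outside the 89 genes (44 genes in the table, among them Cycs, cytochrome c) showed the same low libraries with a smaller swing: -0.18 in both DbDbPue S144 and DbmDMSO S185 and 0.20 in DbDbDMSO 3. By edgeR 0 of 44 were called in any contrast. Over all genes 6.97% were called for title form. For DbDbDMSO over DbmDMSO, DbDbPue over DbDbDMSO and DbDbPue over DbmDMSO these shares were 0.0437%, 0% and 0.182%. Uqcc2, a complex III assembly factor gene, averaged 36.1 ± 7.21 CPM in DbDbPue, 32.5 ± 2.87 in DbDbDMSO and 26.9 ± 0.477 in DbmDMSO, and Uqcc1, its partner, 77.5 ± 5.24, 81.7 ± 4.31 and 91.2 ± 4.47 CPM (SD). For DbDbPue over DbmDMSO the log2 fold changes were 0.41 ± 0.13 (SE; adjusted p 0.302) and -0.25 ± 0.08 (adjusted p 0.279). Neither passed. All DbDbPue values of Uqcc2 were above all DbmDMSO values, as for 512 of 13734 genes, with 538 separated the other way. Of the 44 genes of this list, 2 were separated above and 1 below. With both high-Xist libraries left out, DbDbPue S144 stood alone and the log2 fold change of Uqcc2 was 0.03.

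Of 22 genes of mitochondrial biogenesis, 2 were called, both higher in group-tag libraries, where 6.97% of all genes were called, so the share of this list is near that background. They were Esrrb, an estrogen-related receptor (log2 fold change 1.63 ± 0.32, SE; adjusted p 0.0198 by edgeR), and Ppargc1a, the coactivator PGC-1alpha (1.26 ± 0.33; 0.0486). With both high-Xist libraries left out, neither passed (adjusted p 0.0933 and 0.202). Esrrb had 9.05, 68.97 and 59.5 CPM in DbDbPue S144, 2 and 3, 29.97, 30.3, 43.2 and 99.1 CPM in DbDbDMSO, and 23.1, 11.5, 45.8 and 43.4 CPM in DbmDMSO. Ppargc1a had 21.4, 107 and 127 CPM in DbDbPue, 59.8, 61.5, 78.3 and 169.5 CPM in DbDbDMSO, and 73.3, 29.9, 92.9 and 90.2 CPM in DbmDMSO. Both were lowest in S144 and S185 and highest in DbDbDMSO 3, the libraries at the ends of the subunit levels and of the loop and distal tubule markers. In the 3 comparisons between groups 0 of the 22 were called. Over all genes 0%, 0.182% and 0.0437% were called for DbDbPue over DbDbDMSO, DbDbPue over DbmDMSO and DbDbDMSO over DbmDMSO. The fitted medians of the list, in the same order, were -0.001, -0.0042 and -0.03.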

How the data were processed

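Glomerular RNA of 11 libraries was analysed from the deposited count table, which held whole-number read counts for 22320 RefSeq transcripts. Of its 15 count columns, 4 matched no sample and were not used. Reads had been processed with BWA and limma against mm10, per the submitters' processing notes. Neither the aligner's settings nor the handling of multiply matching reads and of strand is stated in the sources used here. The log2 values that the authors deposited differ from log2 counts by 1 constant in each library. They served only in an alternative. There were 13 blank cells, 0 of them in members, which were read as 0. The symbols of 50 transcripts had become dates and were restored by gene identifier.

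Counts were summed per symbol to 13734 genes. Of the 89 members, 19 have several transcripts, at most 6 each. In 9 of the 19 the highest pair had totals within 10% of each other, so sums count shared reads more than once. Libraries had 35369703 to 44244460 counts, and the lowest member total over the 11 libraries was 965.

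The main test was the edgeR 4.0.16 quasi-likelihood test in R 4.3.3 with TMM factors (0.976 to 1.03), fitted to all 11 libraries with group and title form as terms. The fit had 7 residual degrees of freedom. A gene needed a count of 1 in 3 libraries, which removed 0 genes. P-values were two-sided and adjusted by Benjamini-Hochberg over all genes, and a call is an adjusted p under 0.05. Values in CPM use TMM-scaled totals of all counts, and values in CPM per kb use those of the highest transcript of each gene. Differences within a title form are differences of mean log2 CPM. The scripts were tested on simulated data. The design provided for limma if the files held no counts. They held counts, so edgeR was used.

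Named members were the 2 highest per length in complexes I, III, IV and V, all of complex II, all genes of the isoform sets, the 3 smallest p-values in each direction of each contrast, and any gene called. From each other pathway list, the 2 smallest p-values and any gene called were named. The rule for the members uses names alone, but it, the gene lists and the tests were chosen with earlier results of these data known. Alternatives were DESeq2 1.42.0, limma 3.58.1 on the deposited log2 values, other scalings, filters and covariates, the highest transcript only, a replicate block and leaving out libraries. Coordinates are 1-based on GRCm38 (mm10), and promoter windows and overlaps came from RefSeq (GRCm38.p6) and GENCODE M21.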

Additional observations from a re-analysis of the deposited data

Results flagged for a closer look

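The ratio of a library's gap to its group's range was checked for 55 values in each of DbDbDMSO and DbmDMSO. By this ratio, DbDbDMSO 3 stood apart from the other 3 libraries of its group in 5 values, against 0 values in DbmDMSO. The 5 values come from 1 library, and the members moved together across libraries. They are therefore not separate events, and no comparison with chance can be drawn from their number. Atp5b had 1612 CPM in DbDbDMSO 3, against 1011 to 1102 CPM in the others. Sdha had 476 CPM, against 321 to 335, and Sdhd had 141.1 CPM, against 93.8 to 98.2. Ndufaf5 had 6.385 CPM, against 3.94 to 4.19. The level of the glomerular endothelial markers in this library was -0.6075, against 0.13 to 0.18 in the others. The same library had the highest loop and distal tubule level of all 11 (1.14), and the part of this in the member values was not tested.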

How the results depend on the processing

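Members called stayed at 0 for DbDbPue over DbDbDMSO in every alternative run. For DbDbDMSO over DbmDMSO, 1 member (Cox4i2) was called by DESeq2, and 0 to 1 without single libraries (1 without DbDbDMSO 1). For DbDbPue over DbmDMSO, 2 were called with the loop and distal tubule level and 1 with the mean tubule level as a covariate. For title form, the 2 calls became 62 with the proximal tubule level and 11, all lower, with the loop and distal tubule level. They were 0 without both high-Xist libraries or without DbDbPue S144 and DbmDMSO S185, and 0 to 12 without single libraries (12 without DbmDMSO S184, and 0 without DbDbPue S144, DbDbDMSO S152 or DbmDMSO S185).

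The members' median for DbDbPue over DbDbDMSO (-0.12) was -0.513 without the high-Xist libraries, 0.221 with the loop and distal tubule level, -0.503 within S-number libraries, and -0.265 to 0.0994 without single libraries. For DbDbPue over DbmDMSO (0.03) it was -0.366 without the high-Xist libraries, -0.334 within S-number libraries, and -0.0923 to 0.248 without single libraries. For DbDbDMSO over DbmDMSO (0.15) it was 0.059 to 0.347 without single libraries, and 0.0341 without DbDbPue S144 and DbmDMSO S185. With the loop and distal tubule level it was -0.00965, and with the mean tubule level 0.00326. For title form (0.24) it was -0.44 with the loop and distal tubule level, and 0.102 to 0.382 without single libraries. With that covariate Atp5l (-0.571), Ndufa4 (-0.728) and Ndufb4 (-0.684) changed sign and were called. The cause was not tested.

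The share of all genes called moved more. For DbDbDMSO over DbmDMSO (0.0437%) it was 2.11% by DESeq2, 0.00728% without the title form term, 1.45%, 0.248% and 0.648% with the proximal tubule, loop and distal tubule and mean tubule levels, 0.0947% by limma, 0.0146% without the high-Xist libraries, 0% without DbDbPue S144 and DbmDMSO S185, and 0% to 0.597% without single libraries. For DbDbPue over DbDbDMSO (0%) it was 0.109% by DESeq2, 0.0364% without DbDbPue S144 and DbmDMSO S185, and 0% to 0.0364% without single libraries. For DbDbPue over DbmDMSO (0.182%) it was 2.16% by DESeq2, 0.0364% without the title form term, 2.22%, 1.34% and 2.5% with the 3 tubule levels in the same order, 0% without the high-Xist libraries, 0.0364% without DbDbPue S144 and DbmDMSO S185, and 0% to 0.539% without single libraries. For title form (6.97%) it was 13.7% by DESeq2, 27.7% and 1.93% with the proximal and the loop and distal tubule levels, 0.59% without the high-Xist libraries, 0.422% without DbDbPue S144 and DbmDMSO S185, and 1.19% to 13% without single libraries.

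The replicate block called 0 members and 0.408%, 0% and 0.357% of genes in DbDbDMSO over DbmDMSO, DbDbPue over DbDbDMSO and DbDbPue over DbmDMSO, with members' medians of 0.269, -0.277 and -0.00423. Whether shared numbers mark a pairing is not known. DbDbPue and DbmDMSO both have group-tag libraries 2 and 3, and the correlation of their deviations was 0.0564. With 2 such libraries in a group, the deviations from their mean mirror each other. Both pairs thus give the same single value, which cannot decide the question. The covariates of loop and distal and of mean tubule level, the removal of DbDbPue S144 with DbmDMSO S185, and the interaction with title form were added after seeing the data. Whether depth or the number of libraries limited the calls was not tested.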

Other observations

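Citric acid cycle genes, which feed the respiratory chain, moved with the subunits. The 20 genes of the list had levels of -0.50 in DbDbPue S144 and -0.42 in DbmDMSO S185 and 0.45 in DbDbDMSO 3. All 20 were above 0 for group-tag over S-number libraries, with a median log2 fold change of 0.25. By edgeR 0 were called, against 6.97% of all genes. Idh2, a mitochondrial isocitrate dehydrogenase, came nearest (0.58 ± 0.16, SE; adjusted p 0.0544). For DbDbPue over DbDbDMSO all 20 were below 0, with a median of -0.20 and 0 called (0% of all genes). Within the group-tag libraries 8 of 20 were above 0.

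Among 17 genes of mitochondrial transport and uncoupling, Slc25a27, an uncoupling protein of the inner membrane, was the 1 gene called in the contrast of title form, higher in group-tag libraries (0.80 ± 0.15, SE; adjusted p 0.0192 by edgeR), where 6.97% of all genes were called. With both high-Xist libraries left out its adjusted p was 0.0973. Ucp2, an uncoupling protein found in many tissues, showed a difference by genotype that did not pass the test. It had 404, 321 and 226 CPM in DbDbPue S144, 2 and 3, 349.8, 324, 349 and 284 CPM in DbDbDMSO S152, S153, 1 and 3, and 192, 166, 221 and 268 CPM in DbmDMSO S184, S185, 2 and 3. All DbDbDMSO values were above all DbmDMSO values, and DbDbPue 3 lay within the DbmDMSO range. Such a separation was found for 341 of 13734 genes, with 340 separated the other way. It is therefore no mark of Ucp2 alone. The log2 fold change of DbDbDMSO over DbmDMSO was 0.62 ± 0.19 (SE), with an adjusted p of 0.281. Unlike the subunits, Ucp2 was not low in DbDbPue S144, where it had its highest value.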
